A study of Homo sapiens with 6 samples.

Results

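Gene expression was compared between HEK293 cells kept in Wnt3a medium and HEK293 cells kept in control medium. HEK293 is a line derived from human embryonic kidney. The comparison used 4 of the 6 arrays in the series, chosen by their labels: 2 arrays of cells with control shRNA in control medium and 2 arrays of cells with control shRNA in Wnt3a medium. The cells of all 4 arrays had carried the control shRNA, a short hairpin RNA used as the control for a SET8 knockdown, for about 40 hours and then stayed in the medium for 7 hours. The media were therefore compared after a transfection that both groups shared, at 1 time point and in 1 cell line. The labels name the media as control and Wnt3a medium and do not give the Wnt3a concentration. The other 2 arrays held cells with SET8 shRNA in Wnt3a medium, and their values are given beside some genes without a test. A comparison of those arrays with control medium would use the same control arrays and is no independent evidence.

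Wnt3a is a secreted ligand that binds Frizzled receptors together with the co-receptors LRP5 or LRP6. Binding stops the destruction of beta-catenin, which then enters the nucleus and activates genes with TCF/LEF factors, which bind a short DNA motif. Many of the genes switched on first encode inhibitors of the pathway itself, the Wnt feedback genes. The account below turns on genes outside that set.

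Expression was measured as the intensity of Cy3-labelled cDNA on 1-colour NimbleGen arrays with 45033 probe sets, of which 45031 held 3 probes each. Values below are log2 of the intensities as deposited, the control arrays are the 2 in control medium and the Wnt3a arrays the 2 in Wnt3a medium with control shRNA, and a difference of 1 is a 2-fold difference. The median probe set of an array lay between 7.63 and 7.78 over the 4 arrays, and the random-sequence control set lay between 4.66 and 4.84 over all 6. A probe set was tested if it lay above the median of its array in at least 2 of the 4 arrays, which 23124 probe sets of 12712 genes did. Of 10 genes fixed as markers of the HEK293 line, 7 lay above the array median in both control medium and both Wnt3a arrays. The number of arrays limits the precision of every value, and the labels do not say that arrays of a group came from separate cultures. The p-values therefore measure only how these samples spread, and that spread may be technical.

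The replicates of a group differed more from each other than the media did. The SD of the difference between replicates over tested probe sets was 0.54 in control medium and 0.59 in Wnt3a medium, against 0.31 and 0.35 for the difference between media within the pairs of arrays numbered 1 and 2. The deviations of replicates in the media correlated with r = 0.76 over tested probe sets, which share these arrays and are not independent. Arrays were therefore compared within the pairs given by their number, as the comparison had been set up, although the labels do not say what the number marks. The differences of the pairs correlated with r = 0.30 over the same probe sets. Of the tested probe sets, 7197 (31.1%) were higher in Wnt3a medium in both pairs and 6127 (26.5%) were lower in both, with a median difference of 0.01.

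A small set of genes rose in Wnt3a medium, and no gene fell at the same threshold. With the pair as a block, 9 probe sets (0.0389% of those tested) rose at an adjusted p under 0.05 by limma with Benjamini-Hochberg adjustment, and 0 (0%) fell. The feedback genes NKD1, SP5, AXIN2 and DKK1 gave 4 of them, and LMO2, MAOB, STC1 and SERPINB2 gave 4 others. The remaining one, AK124375, has no gene name in the files and lies at chr16:49197487-49205096 (hg18), inside the span of NKD1. Of the 9, 6 (LMO2, SP5, AK124375, MAOB, DKK1 and SERPINB2) had passed the filter through the Wnt3a arrays alone and so had to be higher there. A filter on the mean of the 4 arrays, added after seeing the data, called 10 probe sets, 6 of them among the 9, and left AK124375, MAOB and SERPINB2 untested. Before adjustment, 1642 probe sets (7.1%) had a p under 0.05 and were higher, and 959 (4.15%) had one and were lower. The calls rest on 1 residual degree of freedom per probe set and on the pairing. Without the block, limma called 0 of the same probe sets (356 had an unadjusted p under 0.05), and with all 6 arrays unblocked it called 1, LMO2, at an adjusted p of 0.0499. No call held when any 1 of the 4 arrays was left out, which also removes the block and leaves 1 array in a group. Those fits held both SET8 shRNA arrays as a separate group. The smallest adjusted p was then 0.0699 with replicate 1 and 0.203 with replicate 2 of control medium left out, and 0.0851 and 0.0833 with replicates 1 and 2 of Wnt3a medium left out. The counts at an unadjusted p under 0.05 were 847, 320, 697 and 891 in the same order.

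Counted by size and without a test, 271 probe sets of 226 genes (1.17%) were at least 1.5-fold higher in both pairs, and 80 probe sets of 77 genes (0.346%) were at least 1.5-fold lower in both. At 2-fold the counts were 39 higher and 9 lower, and at 4-fold they were 5 and 0. Some of these probe sets were tested only because of the medium in which they were high: 70 of the 271 passed the filter through the Wnt3a arrays alone and 29 of the 80 through the control medium arrays alone. Entry through the Wnt3a arrays alone forced a higher value there. Entry through the control medium arrays alone favoured a lower value in Wnt3a medium. Over all tested probe sets such entries numbered 142 and 101.

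**Figure D1:**
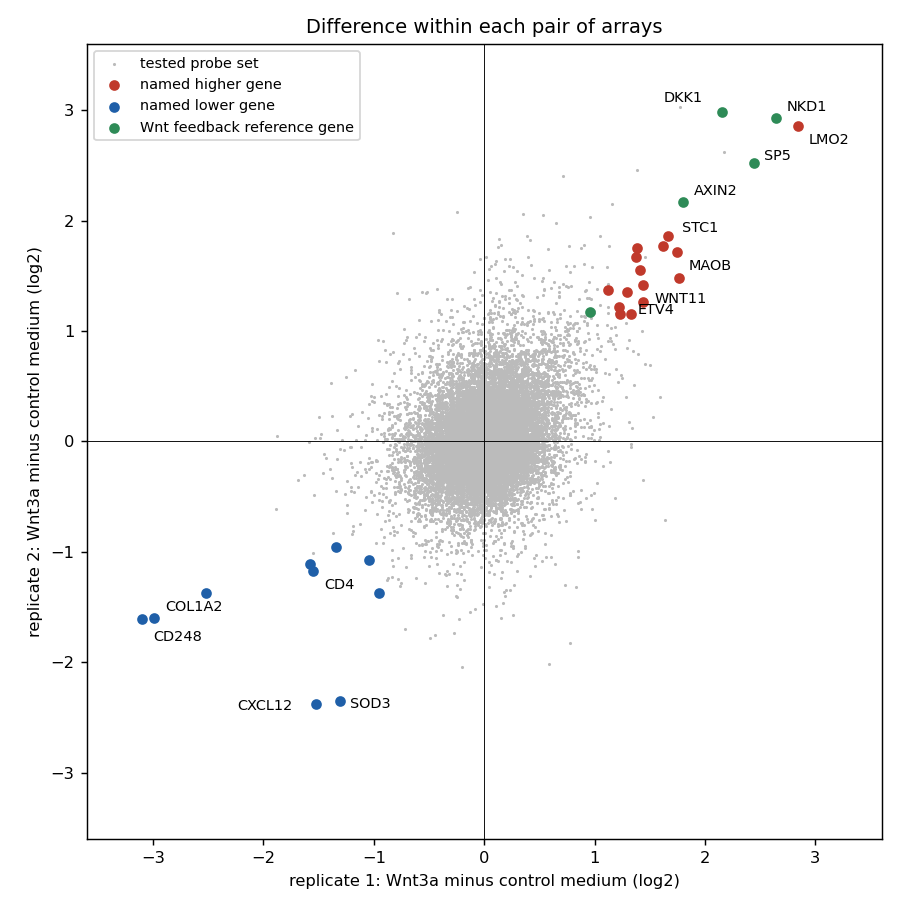
Difference between Wnt3a and control medium (log2) for each tested probe set, with the pair of replicate 1 on the horizontal axis and the pair of replicate 2 on the vertical axis. Red points are the 15 named higher genes, blue points the 10 named lower genes and green points the feedback reference genes. LMO2 lies at 2.84 and 2.86 beside NKD1 at 2.64 and 2.93, while COL1A2 lies at -2.99 and -1.60.

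The feedback genes give the scale of the response. NKD1, which binds Dishevelled and dampens Wnt signalling, measured 8.97 and 8.70 in the control arrays and 11.61 and 11.63 in the Wnt3a arrays. Its rise of 2.79 ± 0.15 (SE, 2 pairs) was 6.9-fold, with an adjusted p of 0.0101 (limma, Benjamini-Hochberg). Here and below, SE is the moderated standard error of limma. It draws on the variance of all tested probe sets and is not the spread of the 2 pairs alone. SP5, a zinc finger transcription factor, rose 5.59-fold and AXIN2, a scaffold of the complex that destroys beta-catenin, rose 3.96-fold. One probe set of DKK1, a secreted inhibitor of LRP5 and LRP6, rose 5.91-fold at an adjusted p of 0.0391, and its other one differed by 2.40 at 0.112. SP5 and both probe sets of DKK1 entered the test through the Wnt3a arrays alone. LEF1, which partners beta-catenin on DNA, differed by 1.07 at its tested probe set with an adjusted p of 0.121, and by 0.69 without replicate 2 of control medium. Of 18 feedback genes listed, 15 were tested, and 14 of those were higher in both pairs and 0 lower, against 31.8% and 25.9% of all tested genes. An unadjusted p under 0.05 was reached by 13 that were higher and 0 that were lower, against 7.46% and 4.19% of all tested genes. Their median difference was 0.90 against 0.02 for all genes.

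LMO2 had the smallest p of all tested probe sets. It encodes a LIM-domain protein that does not bind DNA itself and bridges TAL1, LDB1 and GATA factors in blood progenitors, and it is known as an oncogene of T-cell leukaemia. The probe set NM_005574, at chr11:33836697-33870412 (hg18), measured 6.86 and 6.84 in the control arrays and 9.71 and 9.70 in the Wnt3a arrays. The replicates were almost equal and the groups lay far apart. LMO2 rose by 2.85 ± 0.14 (SE, 2 pairs), or 7.21-fold, at an adjusted p of 0.0101 (limma, Benjamini-Hochberg). In control medium it lay below the array median, so it entered the test through the Wnt3a arrays alone. A further probe set, BC073973, was too low to be tested, with 4.35 and 4.23 in the control arrays, at or below the random-sequence level, and 5.23 and 6.05 in the Wnt3a arrays. In the SET8 shRNA arrays the first probe set measured 8.98 and 8.89.

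The partners of LMO2 did not show such a difference. Of 17 genes of the LMO2 complex and of blood progenitor transcription factors, 10 were tested, of which 2 were higher and 5 lower in both pairs, with a median of -0.13. Among all tested genes 31.8% were higher and 25.9% lower in both pairs. LMO2 itself is among the 10 and the 2 higher, and it was the 1 called, against 0.0389% of all tested probe sets. The list was chosen with earlier results of these data known, so that call is no separate evidence. LDB1, the protein to which LMO2 attaches, differed by -0.28 with an unadjusted p of 0.113. The 3 probe sets of GATA2 differed by -0.08, 0.11 and 0.24. TAL1 was too low to be tested and measured 6.49 and 5.42 in the control arrays and 6.74 and 6.88 in the Wnt3a arrays. LMO1, the closest relative of LMO2, had 5 tested probe sets that differed by between -0.58 and 0.01.

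MAOB encodes monoamine oxidase B, an enzyme of the outer mitochondrial membrane that breaks down dopamine and phenylethylamine. Its single probe set, NM_000898 at chrX:43510800-43626625 (hg18), measured 6.47 and 6.56 in the control arrays and 8.22 and 8.28 in the Wnt3a arrays. As for LMO2, replicates lay close together, the groups did not overlap, and the probe set entered the test through the Wnt3a arrays alone. MAOB rose by 1.74 ± 0.14 (SE, 2 pairs), or 3.33-fold, at an adjusted p of 0.0391 (limma, Benjamini-Hochberg), and measured 7.92 and 7.45 in the SET8 shRNA arrays. MAOA, the neighbouring gene for the related oxidase, differed by 0.58 and 0.40 at its 2 tested probe sets, and the adjusted p of the first was 0.256. Of 11 enzymes of monoamine synthesis and breakdown, 5 were tested, of which 2 were higher in both pairs and 1 was lower. Among all tested genes 31.8% were higher and 25.9% lower in both pairs. MAOB itself is among the 5 and the 2 higher, and it was the 1 called, against 0.0389% of all tested probe sets. This list too was chosen with earlier results of these data known, so the call is no separate evidence.

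STC1 and SERPINB2 encode proteins that are secreted or can be. STC1, stanniocalcin 1, is a glycoprotein hormone of calcium and phosphate handling. NM_003155, at chr8:23755378-23768265 (hg18), measured 7.85 and 7.02 in the control arrays and 9.51 and 8.87 in the Wnt3a arrays. STC1 rose by 1.76 ± 0.15 (SE, 2 pairs), or 3.38-fold, at an adjusted p of 0.0391 (limma, Benjamini-Hochberg). The further probe set BC029044, below the filter, differed by 1.81 and 1.85 in the pairs, close to the 1.66 and 1.86 of the first. With all 6 arrays and the block kept for the control shRNA arrays, STC1 was the 1 of the 9 calls that was lost, at an adjusted p of 0.112. STC1 measured 9.32 and 10.32 in the SET8 shRNA arrays.

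SERPINB2 encodes plasminogen activator inhibitor 2, which blocks urokinase. NM_002575, at chr18:59705921-59722100 (hg18), measured 7.22 and 6.03 in the control arrays and 8.84 and 7.81 in the Wnt3a arrays. Replicate 1 was the higher in both media, and both pairs differed by nearly the same amount, 1.62 and 1.77. Its rise was 3.25-fold, with an SE of 0.15 on the log2 scale over 2 pairs, at an adjusted p of 0.0391 (limma, Benjamini-Hochberg). It has 1 probe set, entered the test through the Wnt3a arrays alone, and differed by 1.11 without replicate 2 of control medium. Its values of 9.22 and 9.37 in the SET8 shRNA arrays lay above those of both Wnt3a arrays with control shRNA.

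**Figure D2:**
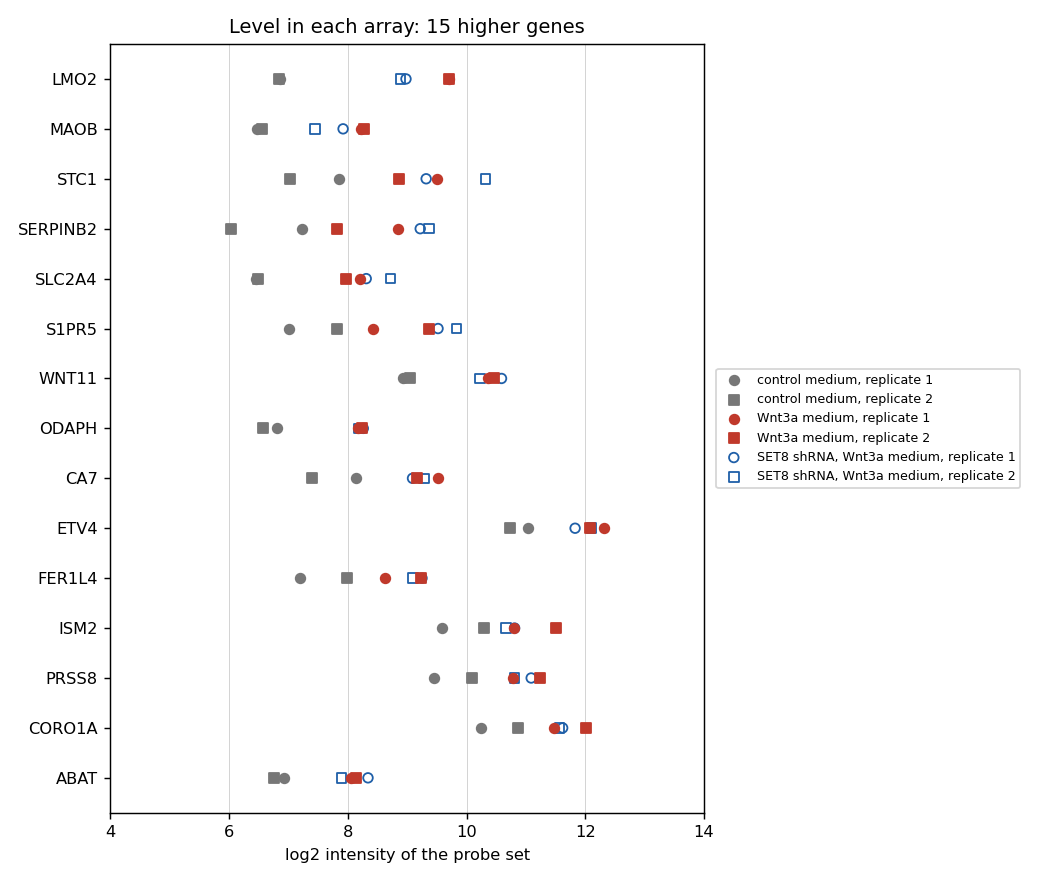
Level (log2 intensity, horizontal axis) of the 15 named higher genes in all 6 arrays, with 1 row per gene and 1 point per array. Filled grey points are control medium, filled red points Wnt3a medium, and open blue points SET8 shRNA in Wnt3a medium, with circles for replicate 1 and squares for replicate 2. In each of the 15 genes both red points lie to the right of both grey points, as LMO2 does with 9.71 and 9.70 against 6.86 and 6.84.

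The 11 further genes named among the 15 with the smallest p outside the feedback list did not pass the threshold. Their adjusted p lay between 0.0609 for SLC2A4 and 0.112, and their values are given as a description. Of all 15, 6 (LMO2, MAOB, SERPINB2, SLC2A4, ODAPH and ABAT) had entered through the Wnt3a arrays alone at their leading probe set. Entry that way forced a higher value there. The groups of arrays did not overlap for any of the 15, as the choice by p favours. Over all tested probe sets, groups did not overlap in 11.6% with Wnt3a medium higher and in 9.22% with it lower. Of the 15, 10 had more than 1 probe set on the array, and in 8 of the 10 all probe sets were on the same side of 0 in both pairs.

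Several of these genes encode signals and receptors. WNT11, a ligand known for beta-catenin-independent signalling in the embryo and kidney, had 3 tested probe sets. The leading one measured 8.93 and 9.05 in the control arrays and 10.37 and 10.47 in the Wnt3a arrays, a difference of 1.43 ± 0.14 (SE, 2 pairs) with an adjusted p of 0.0678 (limma). The others differed by 1.08 and 1.14, so all 3 lay above 2-fold. WNT2B, with 1 probe set, measured 7.99 and 8.19 against 9.02 and 9.13, a difference of 0.98. WNT10A differed by 0.79 and the 3 probe sets of WNT10B by between 0.41 and 0.52. WNT3A itself gave unlike values at its 2 probe sets, 0.65 and 0.02. Of 19 Wnt ligands, 10 were tested, and 6 were higher and 1 lower in both pairs, with a median of 0.34 and 0 called by limma (5 higher and 0 lower at an unadjusted p under 0.05). Among all tested genes 31.8% were higher and 25.9% lower in both pairs, and 7.46% and 4.19% had such a p. The median of the ligands was lower than 0.34 in each alternative. It was 0.26 over all tested probe sets of each gene, 0.26 with no filter, and 0.24 and 0.27 in the single pairs. Of the 10 ligands, 1 had entered through the Wnt3a arrays alone.

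FZD10, a Frizzled receptor for Wnt ligands, was among the 8 higher genes named for agreement between probe sets. These had every tested probe set higher in both pairs and the largest differences at their weakest probe set. Its probe sets measured 8.69 and 7.96, and 8.74 and 8.38, in control medium. In Wnt3a medium they measured 9.81 and 9.19, and 9.92 and 9.42. The differences of 1.17 and 1.11 had adjusted p-values of 0.114 and 0.121 (limma). Of 15 Frizzled and LRP receptor genes and relatives, 13 were tested, of which 8 were higher and 3 lower in both pairs, with a median of 0.17. The shares of all tested genes were 31.8% higher and 25.9% lower. ROR1, a receptor tyrosine kinase that binds Wnt5a, differed by 0.51 and 0.21 at its probe sets, and FZD9 by -0.45.

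S1PR5, a receptor for sphingosine 1-phosphate, measured 7.01 and 7.82 in the control arrays and 8.43 and 9.36 in the Wnt3a arrays. The difference of 1.48 had an adjusted p of 0.0658 (limma), and a second probe set below the filter differed by 1.15. ISM2, which encodes the secreted protein isthmin 2, differed by 1.22 in each pair at its tested probe set, while an untested one differed by 1.33 in the pair of replicate 1 and -0.08 in that of replicate 2. The probe sets of ISM2 therefore disagreed.

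ETV4 encodes a transcription factor of the ETS family that follows FGF and ERK signalling. Its single probe set measured 11.03 and 10.73 in the control arrays and 12.31 and 12.08 in the Wnt3a arrays. The difference of 1.32 ± 0.14 (SE, 2 pairs), or 2.5-fold, had an adjusted p of 0.0877 (limma). The related ETV5 differed by 0.92 and 0.33 at its 2 probe sets. Other genes that follow ERK signalling showed smaller differences, such as SPRY4 at 0.25 and the 3 probe sets of DUSP6 at 0.34, 0.20 and -0.22. Of 18 FGF ligands and ERK feedback genes, 11 were tested, and 5 were higher and 1 lower in both pairs with a median of 0.09. The shares of all tested genes were 31.8% higher and 25.9% lower.

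Transporters and enzymes made up another share. SLC2A4, the insulin-responsive glucose transporter GLUT4, measured 6.45 and 6.49 in the control arrays and 8.21 and 7.97 in the Wnt3a arrays. The difference of 1.62 had an adjusted p of 0.0609 (limma), and the second probe set differed by 1.08. The first entered the test through the Wnt3a arrays alone, while the second entered through both media. SLC2A14 differed by 0.93 and 1.09, and its near-identical relative SLC2A3, the neuronal glucose transporter GLUT3, by 0.94 and 0.88. Transcripts of SLC2A14 and SLC2A3 are alike enough that these probe sets may read both, so they are uncertain as separate results. The first value of SLC2A14 was 0.46 without replicate 1 of Wnt3a medium, 1.4 without its replicate 2 and 0.55 without replicate 2 of control medium. SLC2A1, the widely expressed transporter GLUT1, differed by -0.30. Of 13 glucose transporters, 7 were tested, of which 5 were higher and 1 lower in both pairs with a median of 0.26. The shares of all tested genes were 31.8% higher and 25.9% lower.

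CA7, a cytosolic carbonic anhydrase, measured 8.14 and 7.40 in the control arrays and 9.52 and 9.16 in the Wnt3a arrays, and its probe sets differed by 1.57 and 1.07. HVCN1, the voltage-gated proton channel, had 4 probe sets, of which 3 were tested and differed by 1.11, 1.14 and 1.15. The untested one, at 6.31 and 5.78 against 7.45 and 7.80, differed by 1.58. HVCN1 was the named gene with the largest number of agreeing probe sets among the higher genes, although its 3 tested ones entered through the Wnt3a arrays alone.

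Among the remaining named genes, the actin-binding protein gene CORO1A differed by 1.19 and 1.20 at its 2 probe sets. PRSS8, the membrane-anchored protease prostasin, measured 9.46 and 10.09 against 10.79 and 11.24. ODAPH, a phosphoprotein of tooth enamel formation, measured 6.80 and 6.57 against 8.17 and 8.24, and entered through the Wnt3a arrays alone. PIANP, a ligand of the receptor PILR alpha, differed by 1.13 and 1.28 and measured 11.45 and 11.30 in the SET8 shRNA arrays against 9.67 and 9.37 in Wnt3a medium with control shRNA. Probe sets disagreed in size for ABAT and FER1L4, and for FER1L4 also in direction in the pair of replicate 1. ABAT, the enzyme that degrades the transmitter GABA, differed by 1.25 at one probe set and 0.34 at the other, which had an adjusted p of 0.516 (limma). The probe set of ABAT with the larger difference entered through the Wnt3a arrays alone. The transcribed pseudogene FER1L4 differed by 1.35 at its tested probe set and by 0.37 at another below the filter. That other one differed by -0.07 in the pair of replicate 1 and 0.81 in that of replicate 2. The remaining probe set of FER1L4 lay near the random-sequence level and shows nothing either way.

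**Figure D3:**
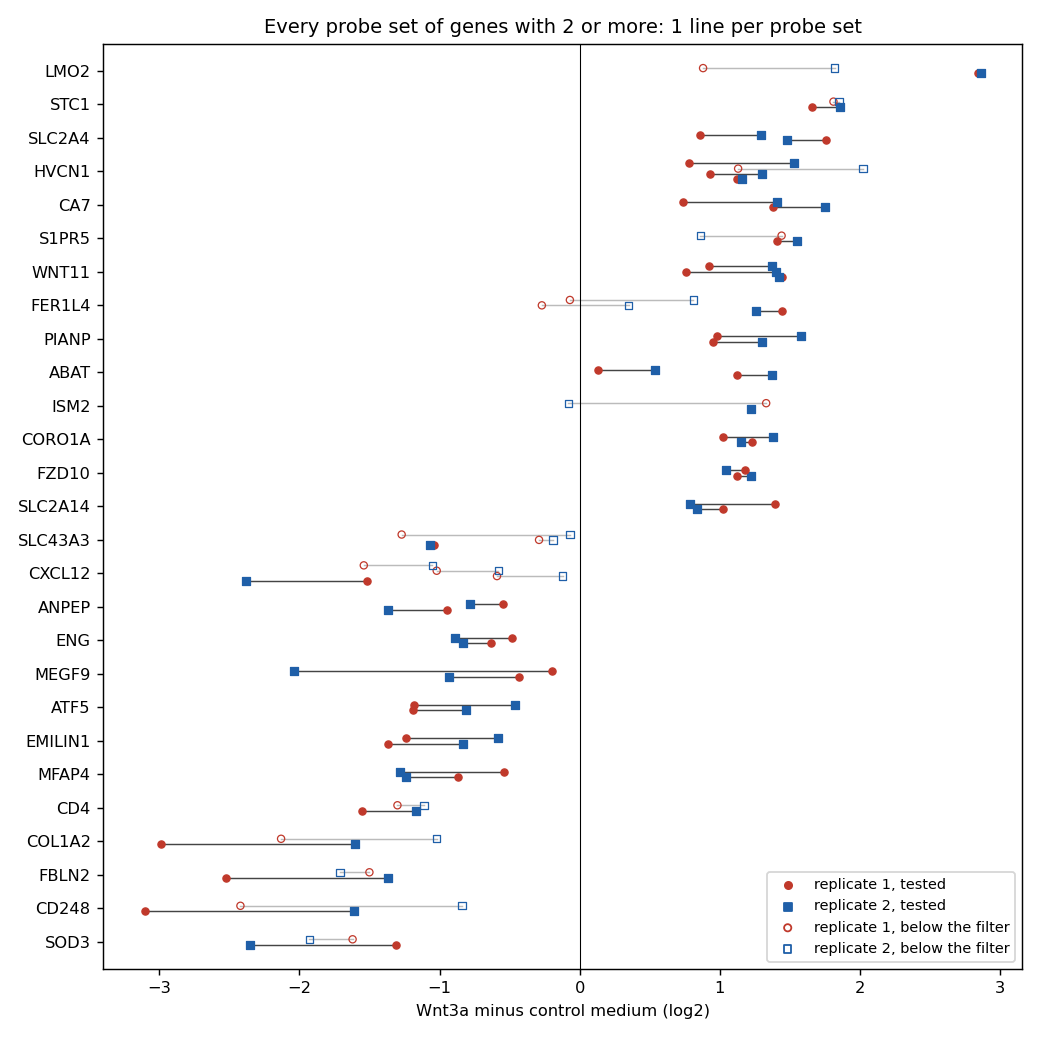
Difference between Wnt3a and control medium (log2, horizontal axis) at every probe set of the named genes with more than 1, where 1 line joins the pair of replicate 1 (circle) to that of replicate 2 (square). Filled symbols passed the filter and open symbols did not. The lines of HVCN1, WNT11 and FZD10 lie together, while those of ABAT and ISM2 lie apart.

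Agreement between probe sets of a gene was counted over the 6181 genes with 2 or more tested probe sets. In 823 genes (13.3%) every tested probe set was higher in both pairs, and in 552 (8.93%) every one was lower. When each probe set also had to be 1.5-fold apart on average, 51 genes (0.825%) remained on the higher side and 9 (0.146%) on the lower side. With 3 or more tested probe sets, every one was higher in 181 and lower in 107 of 2230 genes. The difference between media ranged over a median of 0.19 between probe sets of a gene, and over 0.58 at the 95th percentile. Probe sets of a gene share the RNA of the array and are not replicates. Their genomic spans all overlapped in 5948 of the genes (96.2%), no pair of them had equal values on all 4 arrays, and the positions of probes within transcripts were not used here.

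A large difference at 1 probe set was often not matched in size at the others. Of 111 genes with several tested probe sets and at least 1 that was 1.5-fold higher in both pairs, 24 had every probe set at that size and 62 had the others on the same side but smaller. In 18 a further probe set had its pairs on different sides, and in 7 a further one was lower in both. On the lower side, of 39 such genes 0 had every probe set at that size in both pairs, 20 had all on the same side, 16 were mixed and 3 had a further one on the opposite side.

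Promoter sequence was available for 10 of the 19 named higher genes, as the 250 bases before and 50 after the gene start in RefSeq on GRCh38.p14. The TCF/LEF core was searched on both strands in 4 forms that share their first letters: CTTTGAA (held by 4.43% of all promoters), CTTTGAT (held by 2.62%), CTTTGTT (held by 5.2%) and CTTTGTA (held by 2.77%). Any of them was found in 2 of the 10, in 2 of the 9 named lower genes with a promoter and in 2 of 3 feedback reference genes. Any was found in 4829 of all 35116 promoters (13.8%). Windows of 120 bases before the start are shown for MAOB and SLC2A14, the 2 higher genes with a match, and for SP5 and DKK1 as feedback genes to compare them with. Capitals mark the core, which in some places is read on the opposite strand.
MAOB, chrX:43882542-43882661, minus strand: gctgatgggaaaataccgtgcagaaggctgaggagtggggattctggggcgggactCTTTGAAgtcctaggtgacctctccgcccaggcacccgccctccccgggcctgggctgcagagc
SLC2A14, chr12:7872916-7873035, minus strand: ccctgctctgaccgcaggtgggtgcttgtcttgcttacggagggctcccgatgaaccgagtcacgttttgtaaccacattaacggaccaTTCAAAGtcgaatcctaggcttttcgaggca
SP5, chr2:170715172-170715291, plus strand: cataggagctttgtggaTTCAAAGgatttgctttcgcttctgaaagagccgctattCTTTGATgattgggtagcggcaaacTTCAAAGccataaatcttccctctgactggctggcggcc
DKK1, chr10:52314130-52314249, plus strand: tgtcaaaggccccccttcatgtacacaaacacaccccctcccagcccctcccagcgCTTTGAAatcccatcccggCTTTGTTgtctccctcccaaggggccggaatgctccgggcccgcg
MAOB held 1 core, 155 bases before the start, and SLC2A14 held 1, 31 bases before it. SP5 held 3 cores within this window and DKK1 held 2. A match is a description of these letters and does not show binding, and a window without one says nothing about sites elsewhere.

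No lower gene passed the threshold, and the lower genes are given as a description. The 10 lower genes with the smallest p had adjusted p-values between 0.11 and 0.121 (limma, Benjamini-Hochberg), and the choice by p favours groups of arrays that do not overlap, as theirs did not. Of the 10, 8 entered the test through the control medium arrays alone, which favours a lower value in Wnt3a medium. Of 8 with more than 1 probe set, all 8 had every probe set lower in both pairs.

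CD248, a surface glycoprotein of fibroblasts and pericytes, measured 9.24 and 9.42 in the control arrays and 6.14 and 7.81 in the Wnt3a arrays. The pairs differed by -3.10 and -1.61. Their mean of -2.36 ± 0.33 (moderated SE, 2 pairs) was 5.12-fold, with an adjusted p of 0.121 (limma), and a further probe set differed by -1.63. COL1A2, a chain of type I collagen, measured 8.28 and 7.87 against 5.29 and 6.28, and its 2 probe sets differed by -2.29 and -1.58. Without replicate 1 of Wnt3a medium CD248 differed by -1.52. For both genes the Wnt3a arrays lay further apart from each other than the control medium arrays did. FBLN2, the matrix protein fibulin 2, differed by -1.94 and -1.60, and SOD3, the extracellular superoxide dismutase, by -1.83 and -1.78. The first value of FBLN2 was -0.91 without replicate 1 and -2.97 without replicate 2 of Wnt3a medium, which measured 5.32 and 7.38.

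CXCL12, a chemokine made by stromal cells, measured 8.09 and 7.74 in the control arrays and 6.57 and 5.36 in the Wnt3a arrays. Its leading probe set differed by -1.95, and its 3 untested ones by -0.35, -0.80 and -1.29. CD4, the co-receptor of helper T cells, measured 8.19 and 8.06 against 6.64 and 6.89, and its second probe set differed by -1.20. The matrix protein gene SPON2 differed by -1.34, PLAC9 by -1.15, and the surface peptidase gene ANPEP by -1.16 and -0.66. SLC43A3, a transporter of purine bases, differed by -1.06 at its tested probe set and by -0.24 and -0.67 at the others.

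**Figure D4:**
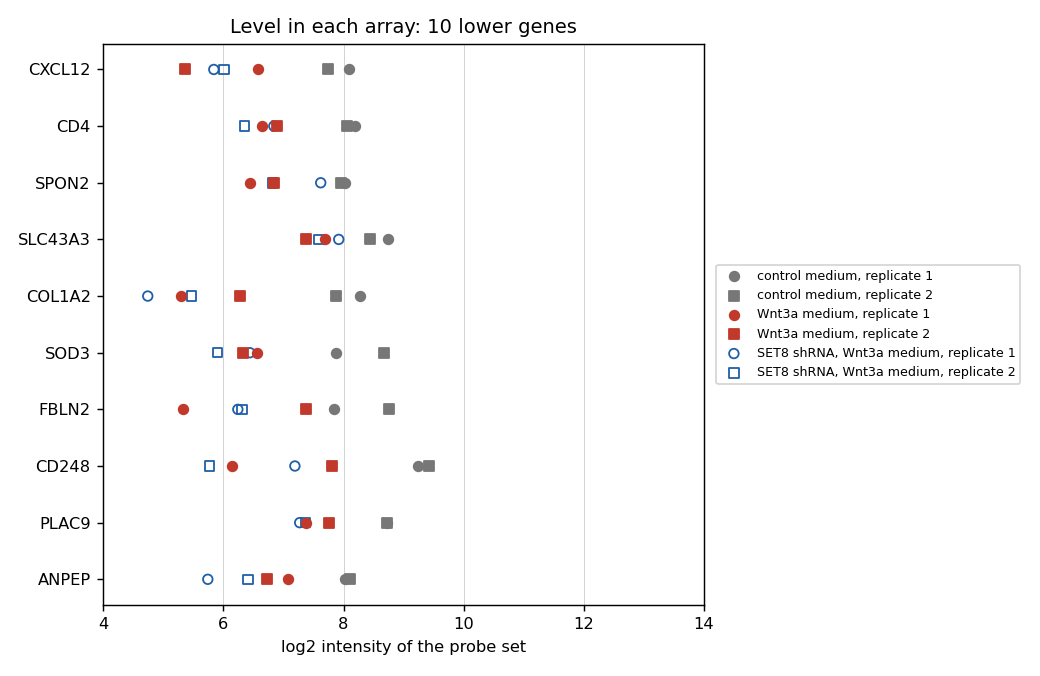
Level (log2 intensity, horizontal axis) of the 10 named lower genes in all 6 arrays, with 1 row per gene and 1 point per array. Filled grey points are control medium, filled red points Wnt3a medium, and open blue points SET8 shRNA in Wnt3a medium, with circles for replicate 1 and squares for replicate 2. Both red points lie to the left of both grey points in each of the 10 genes, as in CD248 at 6.14 and 7.81 against 9.24 and 9.42.

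Some fibroblast markers were also lower in Wnt3a medium. COL1A2 is both a marker and a lower gene chosen by p, so it counts in both. Of 13 fixed markers, 5 lay above the array median in both control medium arrays and 3 in both Wnt3a arrays. Of their 31 probe sets, 8 passed the filter. Over the 31, 20 were lower and 5 higher in both pairs, against 25.9% and 30.4% of all probe sets on the array. Probe sets of a gene are not independent. At 1 probe set per gene, that with the highest mean over the 4 arrays, 8 genes were lower and 3 higher in both pairs. At least 1.5-fold lower in both pairs were 13 and 1.5-fold higher 1, against 1.92% and 2.71%. Of these 13 probe sets, DCN gave 5 and COL1A2 gave 2. The median difference of the 31 was -0.49 against 0.02 for all probe sets. All 5 probe sets of DCN, the collagen-binding proteoglycan decorin, were lower by between 1.55 and 2.11 on average, from a level below the filter. In Wnt3a medium NM_133506 of DCN fell to 4.48 in replicate 1 and BC005322 to 4.53 in replicate 2. These values lay at or below the random-sequence level, so the size of these 2 differences is not measured. Also below the filter, THY1 differed by -1.35 and -1.58 and COL6A3 by -1.73 and -1.72. POSTN and PDGFRA lay near the random-sequence level in several arrays, as NM_006475 of POSTN did at 5.00 and 4.49 in the control arrays and 5.02 and 4.87 in the Wnt3a arrays.

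Other fibroblast markers did not move that way. COL1A1 differed by 0.28 and 0.17 and the tested probe sets of COL5A1 by 0.02 and -0.05. LUM was higher in both pairs at both of its probe sets, which were below the filter. The summed intensity of all 13 markers was 13064 and 11162 in the control arrays and 13232 and 11181 in the Wnt3a arrays, so it overlapped. Without COL1A1, COL5A1 and COL5A2, the 3 members of largest intensity, left out after their values were seen, it was 1532 and 1419 against 659 and 722. In bulk RNA, fewer cells of a type and less RNA per cell cannot be told apart. The part of these markers in the lower genes was not tested. The summed intensity of 11 blood cell markers was 2531 and 3162 against 2742 and 3016, and overlapped between media.

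Of 23 extracellular matrix and fibroblast genes, 15 were tested, and 2 were higher and 7 lower in both pairs. Their median was -0.09, and the shares of all tested genes were 31.8% higher and 25.9% lower. At an unadjusted p under 0.05, 6 were lower and 0 higher, against 4.19% and 7.46% of all tested genes, and 5 of the 15 had entered through the control medium arrays alone. The list held CXCL12, SPON2, COL1A2 and SOD3 from above and was chosen with earlier results of these data known. Within the same list FN1, fibronectin, differed by -0.02 and COL6A1, a chain of type VI collagen, by -0.01.

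EMILIN1, MFAP4, ATF5, ENG and MEGF9 were the lower genes named for agreement between probe sets. They had every tested probe set lower in both pairs and the most negative differences at their weakest probe set. EMILIN1 and MFAP4, proteins of elastic fibres and microfibrils, differed by -1.10 and -0.91, and by -1.05 and -0.91. ATF5, a transcription factor of the stress response, measured 13.55 and 13.49 in the control arrays and 12.37 and 12.68 in the Wnt3a arrays. Its leading probe set differed by -1.19 and -0.81 in the pairs and the other by -1.18 and -0.46, and the smaller adjusted p was 0.141 (limma). In the SET8 shRNA arrays the first of them measured 13.58 and 13.13, so ATF5 spanned the control medium level there. ENG, the TGF-beta co-receptor endoglin, differed by -0.73 and -0.68, the first being -0.41 without replicate 2 of Wnt3a medium. The first probe set of ENG entered through the control medium arrays alone, which favours a lower value in Wnt3a medium. MEGF9 differed by -0.68 and -1.12, but its arrays overlapped between media, with 8.25 and 7.03 against 7.82 and 6.09, and its first value moved to between -1.54 and 0.18 with 1 array left out, being -0.07 and -1.29 without replicates 1 and 2 of control medium and -1.54 and 0.18 without those of Wnt3a medium.

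Genes often cited as Wnt targets outside the feedback set had a smaller median difference than the feedback genes. Of 34 such genes, 26 were tested, of which 13 were higher and 7 lower in both pairs, with a median of 0.14 and 0 called by limma. Among all tested genes 31.8% were higher and 25.9% lower in both pairs. Before adjustment 5 higher and 3 lower ones of the list had a p under 0.05 (limma), against 7.46% and 4.19% of all tested genes. CCND1, cyclin D1, differed by 0.30 at both of its probe sets, measuring 13.79 and 13.89 against 14.08 and 14.20 at one of them. MYC differed by -0.10, with 11.68 and 11.41 against 11.56 and 11.32. CCN2, a matricellular protein also called CTGF, differed by -0.65 and -0.41, and TIAM1, an activator of the GTPase Rac, by 0.57.

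Of 18 transcription factors of the primitive streak and of segmentation, 9 were tested, and 3 were higher and 2 lower in both pairs. The shares of all tested genes were 31.8% higher and 25.9% lower. HES7, a repressor of the segmentation clock, had the largest difference among the 9. It measured 6.93 and 5.86 in the control arrays and 8.31 and 8.32 in the Wnt3a arrays, and entered through the Wnt3a arrays alone. The difference was 1.92 ± 0.26 (moderated SE, 2 pairs) with an adjusted p of 0.121 (limma). HAND1 differed by 0.79, while the 2 probe sets of LHX1 differed by -0.68 and -0.48.

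**Figure D5:**
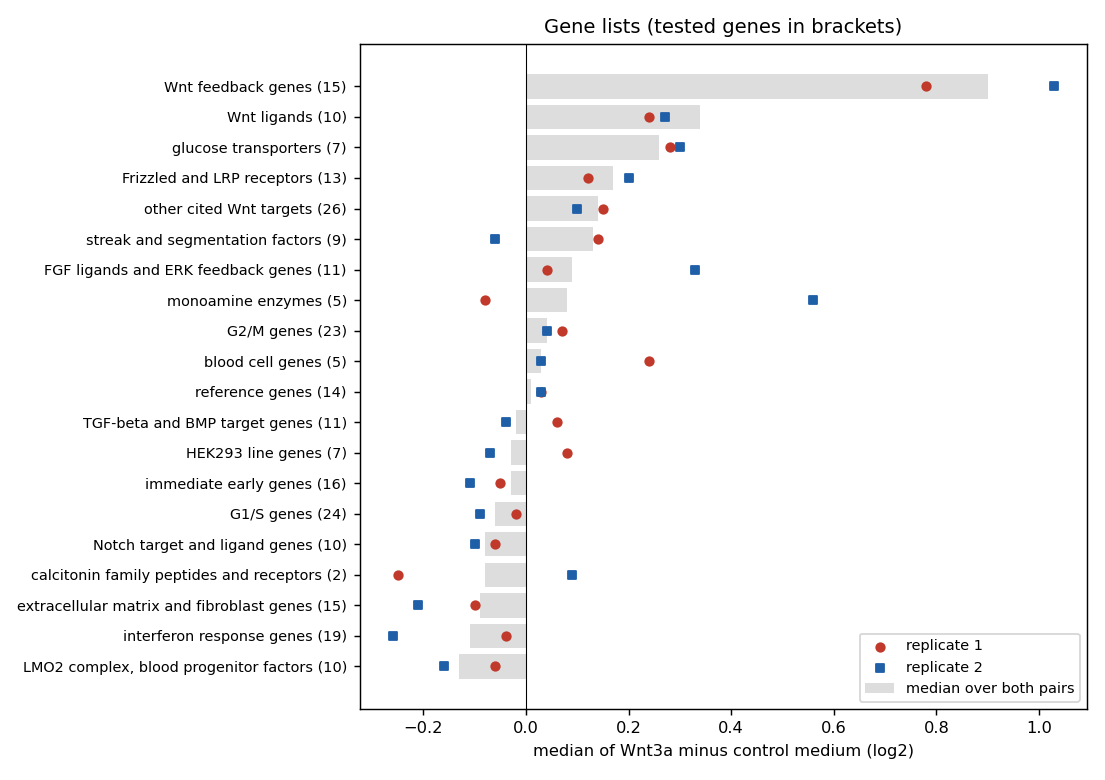
Median difference between Wnt3a and control medium (log2, horizontal axis) over the tested genes of each of 20 lists, with the number of tested genes in brackets. Grey bars are the median of the differences averaged over both pairs and start at 0, red circles the median in the pair of replicate 1 and blue squares that of replicate 2. The Wnt feedback genes lie at 0.90 and the Wnt ligands at 0.34, and the LMO2 complex lies at -0.13.

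Other pathways had medians near 0. The median was -0.02 over 11 tested TGF-beta and BMP target genes, -0.08 over 10 Notch target and ligand genes and -0.03 over 16 immediate early genes. PMEPA1, an inhibitor of TGF-beta signalling, differed by -0.51 and -0.30, and JAG2, a Notch ligand, by 0.52. Among the immediate early genes the relatives NR4A1 and NR4A2 differed in opposite directions, with NR4A1 at 0.66 and 0.91 and NR4A2 at -0.50, -0.62 and -0.17. KLF4 differed by -0.58 and -0.41.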

How the data were processed

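The authors deposited 1 file per array with an intensity for each probe set, summarised by RMA per the submitters' processing notes, with hg18 positions. The intensities are linear, and log2 was taken here with no offset. The software versions behind them are not given in the sources used here. Gene symbols were updated through RefSeq gene IDs for 38916 probe sets (86.4%), and 2086 had no gene name.

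A linear model with the medium and the replicate number was fitted to the 4 arrays with limma 3.58.1 in R 4.3.3 and checked on simulated data. Benjamini-Hochberg adjustment covered all 23124 tested probe sets, and 0.05 was the threshold. Lists were described by counts and medians over 1 probe set per gene, that with the highest mean over the 4 arrays.

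Named genes outside the feedback list are the 15 higher and 10 lower with the smallest p. Another rule named 8 higher and 5 lower genes whose tested probe sets all lay on the same side in both pairs. They had the largest differences at their weakest probe set. In each list the members past the threshold or the 2 with the smallest p were named. Further list members were named after their values were seen. The genes, lists and tests were chosen with earlier results of these data known. Alternatives changed the block, filter, variance model, normalization, offset and arrays.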

Additional observations from a re-analysis of the deposited data

How the results depend on the processing

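The count of 9 called probe sets depended on the model. Without the replicate block it was 0 with 4 arrays and 1 with all 6 arrays, and with all 6 arrays and the replicate block for the control shRNA arrays alone it was 16, of which 8 were among the 9. It was 0 with no filter, where limma gave 3871 probe sets an unadjusted p under 0.05, 97 with a filter at the 60th percentile (6 of the 9), 139 with an intensity trend in the variance, 14 after quantile normalization again and 17 at an adjusted p under 0.1. It was 188 with an intensity trend and no filter, and 10 with a filter on the mean of the 4 arrays (6 of the 9), alternatives chosen after seeing the data. The trend added lower genes, with 30 lower calls among the 139 and 61 among the 188. All 9 were kept with the trend, the robust fit, the added quantile normalization and an offset of 32. Leaving out 1 array, in fits that held both SET8 shRNA arrays and no block, kept no call. LMO2 kept an adjusted p under 0.05 in 9 of 15 alternatives, STC1 in 7 of 15, and MAOB and SERPINB2 in 6 of 13 each. The count of 351 probe sets 1.5-fold apart in both pairs became 2085 with no filter, 156 with the 60th percentile filter and 133 with no replicate block (both Wnt3a arrays beyond both control medium arrays), and a single pair gave 1335 to 1922. The count of 1375 genes whose probe sets agree became 2091, 1105 and 288 in the same order, 3327 to 3329 with a single pair, and 288 with 3 or more tested probe sets, added after seeing the data. MEGF9 ranged from -1.54 to 0.18 with 1 array left out and reversed without Wnt3a medium replicate 2. Of 551 values of named genes under alternatives, 423 kept direction and side of the threshold. Several alternatives alter the p-value and leave the difference as it was, and most named genes were above the threshold in the main fit. The count is therefore no measure of how firm the calls are. Of 80 list medians, 50 moved by less than 1 SD of the pairs. Except where the use of a single pair or another set of tested probe sets explains a change, the cause was not tested. Where a probe set lay near the random-sequence level in either medium, the size of its difference is not measured.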

Other observations

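Several members of the lists were too low to be tested and are given as values chosen after they were seen. TBXT, the mesoderm factor brachyury, measured 5.46 and 5.35 in the control arrays and 7.93 and 7.42 in the Wnt3a arrays at one probe set, and its second differed by 1.30. CALCB, a calcitonin gene-related peptide, measured 5.45 and 5.94 against 7.40 and 8.07. FGF18, a fibroblast growth factor, measured 6.60 and 5.45 against 7.61 and 7.47. DBH, the enzyme that makes noradrenaline, measured 5.51 and 5.17 against 6.62 and 6.48. EDN1, the vasoconstrictor peptide endothelin 1, measured 7.05 and 7.02 against 7.07 and 7.83 at one probe set, and the other lay near the random-sequence level in the control arrays. Among probe sets of all levels on the array, 1222 (2.71%) were at least 1.5-fold higher in both pairs.

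Of 28 interferon response genes, 19 were tested, and 4 were higher and 9 lower in both pairs, with medians of -0.04 and -0.26 in the pairs and 0 called by limma (4 lower and 0 higher at an unadjusted p under 0.05). Of all tested genes, 31.8% were higher and 25.9% lower in both pairs, and 4.19% were lower at such a p. IFIT3 differed by -0.72 and OAS1, which senses double-stranded RNA, by -0.76, with most of the difference in the pair of replicate 2. Of the G1/S genes, 5 were higher and 8 lower in both pairs among 24 tested, and of the G2/M genes 8 were higher and 2 lower among 23. Their medians were -0.06 and 0.04. The 14 reference genes had a median of 0.01.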
